A study of Homo sapiens with 10 samples.

Results

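The collagen chain genes encode the alpha chains from which every collagen molecule is assembled. Members were all probe sets whose platform gene symbol was COL, a number, A and a number, and each of the 41 symbols found had 1 probe set, so no choice between probe sets was needed. They made up 41 of the 17687 gene symbols on the array. All 41 matched a gene in RefSeq, and COL3A1, COL7A1 and COL17A1 were not analysed here. The arrays carried total RNA of SK-N-AS and SK-N-FI, established human neuroblastoma cell lines, hybridised to whole-transcript Affymetrix arrays. The groups were SK-N-AS treated with 30 µM BG-P1600-TAT for 48 h (3 arrays, numbered 28, 29 and 30), SK-N-AS control (3 arrays, 25, 26 and 27), SK-N-FI treated in the same way (2 arrays) and SK-N-FI control (2 arrays). BG-P1600-TAT is a PEGylated compound that the series title describes as directed at the norepinephrine transporter and the integrin αvβ3, and control cells received PBS. All cells were grown in serum-containing medium. The SK-N-AS titles write BG-P-TAT, read here as the same agent, and every SK-N-AS treatment value rests on that reading. The labels call SK-N-AS a primary line that was received as a gift, and SK-N-FI was obtained from a repository. Separate cultures are not stated for the SK-N-AS arrays, and their p-values therefore rest on array-to-array spread that may be technical.

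Collagens are secreted or membrane-bound proteins in which 3 alpha chains wind into a triple helix. Fibrillar collagens such as types I and V give connective tissue its tensile strength, type IV forms the sheet-like network of basement membranes, and type VI forms beaded filaments next to cells. In a tumour, much of the fibrillar collagen is usually made by stromal fibroblasts, and a cell line in culture has no stroma of its own. Several types are heterotrimers. Type I usually joins COL1A1 with COL1A2, the common type IV joins COL4A1 with COL4A2, and type VI combines COL6A1 and COL6A2 with COL6A3 or a related long chain.

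Values are deposited log2 signals unless stated otherwise. A chain is called above background on an array if its signal passed a level set by that array's own 612 negative control probe sets, their 95th percentile, which lay between 6.75 and 7.23 on SK-N-AS arrays and between 7.44 and 8.26 on SK-N-FI arrays. The highest of these, 8.26, belonged to SK-N-FI treated array 1. On a first principal component that held 50% of the variance among the SK-N-AS arrays, control array 25 scored -57.5 and treated array 28 scored -31.0, whereas the other 4 scored between 4.33 and 50.6. Results that rest on these arrays are given with and without them where the call or direction changed. The median gene signal lay between 5.75 and 5.81 on SK-N-AS arrays and between 6.61 and 6.62 on SK-N-FI arrays, as if each line had been normalized on its own. Differences between the lines were therefore taken after quantile normalization over all 10 arrays, with the deposited scale beside them. On the quantile scale the background levels lay between 7.23 and 7.96 on SK-N-AS arrays and between 6.73 and 7.38 on SK-N-FI arrays. They were thus mostly higher in SK-N-AS there, and the part of this in the line differences of dim chains was not tested. Any difference of run between the lines and the line itself cannot be told apart. As a check of the labelled cell type, 3 of 6 measured sympathoadrenal markers (HAND2, GATA3 and ISL1) were above background on every SK-N-AS array. On every SK-N-FI array 5 of 6 were, which added PHOX2A and DBH. The shares of all gene probe sets were 30.9% and 38.1%. TH, the enzyme that starts catecholamine synthesis, was above background on no array.

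Most collagen chains gave no signal that could be told from background in either line. Of the 41 chains, 8 exceeded the negative controls on at least 1 array and 33 on none. Of all 21448 gene probe sets, 10688 did so on at least 1 array and 10760 on none. Only 4 chains were above background on every array of a line, against 41.8% of all gene probe sets. These 4 were COL6A2, COL6A1, COL23A1 and COL1A2 in SK-N-AS, or 9.76% of the chains against 30.9% of all gene probe sets there. In SK-N-FI they were COL23A1 and COL1A2, or 4.88% of the chains against 38.1%. The remaining 4 of the 8 were COL4A2, COL28A1, COL5A1 and COL4A5, which crossed the threshold on some arrays. Between 6 and 7 chains were above background per array in treated SK-N-AS and between 4 and 7 in control SK-N-AS. SK-N-FI had 2 and 3 on its treated arrays and 4 on each control array. The percentage of all gene probe sets above background was 36.2 to 39.7 in treated and 32.9 to 39.3 in control SK-N-AS. In SK-N-FI it was 38.3 and 42.7 on the treated arrays and 42.9 and 44.3 on the control arrays. With the 99th percentile of the negative controls as the threshold, 1 chain (COL6A2) was above background on every SK-N-AS array and 0 on every SK-N-FI array. Bulk RNA cannot tell fewer cells with a transcript from less transcript per cell.

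**Figure D1:**
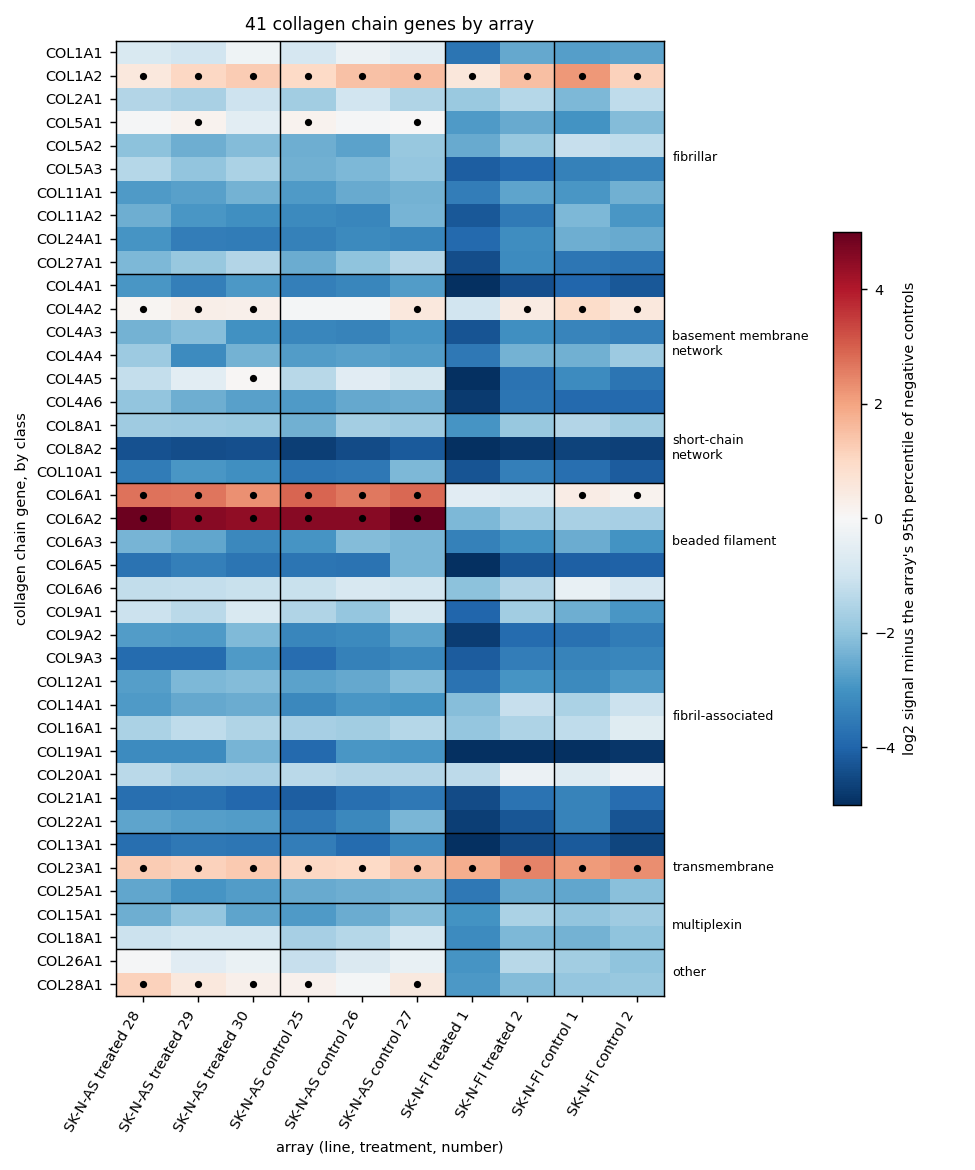
Log2 signal of each of the 41 collagen chains (rows, grouped by class) minus the 95th percentile of the negative controls on the same array (columns), with a dot where the chain exceeded that level. The 10 fibril-associated, 3 short-chain and 2 multiplexin chains have no dot on any array, and COL6A2 has dots on all 6 SK-N-AS arrays and on none of 4 SK-N-FI arrays.

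By class, the fibrillar chains had 2 of 10 members above background on any array, the basement membrane chains 2 of 6 and the beaded filament chains 2 of 5. The transmembrane chains had 1 of 3, and the pair outside the other classes, COL26A1 and COL28A1, 1 of 2. The like count over all gene probe sets was 10688 of 21448, so these small classes are described only. The 10 fibril-associated chains, which bind to the surface of fibrils, had none, nor did the 3 short-chain network chains or the multiplexins COL15A1 and COL18A1, the second of which is the precursor of endostatin. The class members below background on all arrays included COL9A1 to COL9A3, COL8A1 and COL8A2, and COL11A1 and COL11A2, chains best known from cartilage and from corneal and vascular membranes. Values of a chain that was never above background describe a signal at the level of the negative controls and say little about its transcript.

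COL6A2, the alpha 2 chain of the beaded filament collagen VI, had the largest line difference of the 41 chains on both scales and in both arms. Its log2 signal was 11.81, 11.57 and 11.20 in treated SK-N-AS and 11.80, 11.59 and 11.71 in control SK-N-AS, against 5.99 and 5.79 in treated SK-N-FI and 5.99 and 5.77 in control SK-N-FI. All 6 SK-N-AS arrays lay far above the negative controls and all 4 SK-N-FI arrays lay below them, with no overlap. COL6A1, the alpha 1 chain that combines with it, read 9.61, 9.70 and 9.03 in treated SK-N-AS and 10.13, 9.67 and 9.62 in control SK-N-AS, against 7.70 and 6.89 in treated SK-N-FI and 7.99 and 7.59 in control SK-N-FI. It was above background on all 6 SK-N-AS arrays and, among the SK-N-FI arrays, on both controls and neither treated array. On SK-N-FI treated array 1 its 7.70 exceeded the 7.59 of control array 2, but the background level of that treated array was 8.26. The long chain COL6A3 was above background on no array, with means of 4.18 ± 0.56 in treated and 4.53 ± 0.29 in control SK-N-AS (SD, n = 3 each) and 4.72 ± 0.20 in treated and 4.79 ± 0.48 in control SK-N-FI (SD, n = 2 each). The long chains COL6A5 and COL6A6 were not above background on any array either, so neither line had a further type VI chain above background beside COL6A1 and COL6A2.

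Promoter windows were available for 30 of the 41 genes, each from 250 bases before to 50 bases after the transcription start, from RefSeq with the build GRCh38.p14. Shown here are COL6A2 and COL5A1, which were higher in SK-N-AS on both scales, COL23A1, which was above background in both lines, and COL4A2, which shares its promoter region with COL4A1. They are chr21:46097862-46098161 on the plus strand, chr9:134641553-134641852 on the plus strand (the first of 2 windows of COL5A1), chr5:178590344-178590643 on the minus strand and chr13:110307034-110307333 on the plus strand. Each reads 5′ to 3′ on the gene's strand, and capitals mark the TATA box letters TATAAA, the CAAT box letters CCAAT and the GC box letters GGGCGG on either strand, searched as those letters and their reverse complements.
COL6A2: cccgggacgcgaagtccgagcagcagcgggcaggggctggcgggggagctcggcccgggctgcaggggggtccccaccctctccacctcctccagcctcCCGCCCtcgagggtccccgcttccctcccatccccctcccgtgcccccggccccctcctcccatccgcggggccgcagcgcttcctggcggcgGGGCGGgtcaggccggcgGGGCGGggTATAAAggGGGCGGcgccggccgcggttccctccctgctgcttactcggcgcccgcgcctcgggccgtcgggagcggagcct
COL5A1: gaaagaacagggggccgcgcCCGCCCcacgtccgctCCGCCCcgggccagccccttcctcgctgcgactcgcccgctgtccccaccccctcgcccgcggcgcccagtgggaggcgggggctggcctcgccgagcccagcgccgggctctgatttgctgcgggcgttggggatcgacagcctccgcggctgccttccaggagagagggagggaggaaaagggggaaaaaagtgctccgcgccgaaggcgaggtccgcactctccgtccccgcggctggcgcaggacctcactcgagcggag
COL23A1: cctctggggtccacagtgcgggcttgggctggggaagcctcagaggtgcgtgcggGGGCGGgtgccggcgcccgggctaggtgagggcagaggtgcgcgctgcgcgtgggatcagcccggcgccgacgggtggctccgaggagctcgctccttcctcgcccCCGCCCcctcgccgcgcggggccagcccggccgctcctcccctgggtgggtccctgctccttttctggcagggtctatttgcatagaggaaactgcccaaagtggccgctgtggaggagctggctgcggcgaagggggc
COL4A2: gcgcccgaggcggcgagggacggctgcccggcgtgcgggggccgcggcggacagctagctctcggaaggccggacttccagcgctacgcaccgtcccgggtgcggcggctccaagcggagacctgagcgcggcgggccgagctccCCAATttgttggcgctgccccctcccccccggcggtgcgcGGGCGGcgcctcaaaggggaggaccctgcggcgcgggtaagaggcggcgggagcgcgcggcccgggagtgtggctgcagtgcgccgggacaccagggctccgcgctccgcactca
Among 35116 windows of the same length in the RefSeq table, 11.5% held TATAAA, 34.6% CCAAT and 45.0% GGGCGG. The COL6A2 window held 1 TATAAA, 32 bases upstream of the start, and 4 GGGCGG. The COL5A1 window and the COL23A1 window held 2 GGGCGG each, and the COL4A2 window held 1 CCAAT and 1 GGGCGG. A match is a description of the letters and not of factor binding, and motif shares over the 41 genes are not given because windows were at hand for fewer than 80% of them.

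The type I chains differed in whether they were above background. COL1A2, the alpha 2 chain of the main collagen of bone, tendon and skin, read 7.44, 8.06 and 8.04 in treated SK-N-AS and 8.23, 8.50 and 8.31 in control SK-N-AS, against 8.82 and 9.10 in treated SK-N-FI and 9.76 and 8.61 in control SK-N-FI. Every array was above its own background level, and the SK-N-FI controls spread over more than 1 log2 unit. COL1A1, its partner chain, was above background on no array, with means of 6.25 ± 0.25 in treated and 6.44 ± 0.26 in control SK-N-AS (SD, n = 3 each) and 4.81 ± 0.32 in treated and 4.81 ± 0.05 in control SK-N-FI (SD, n = 2 each). COL5A1, a regulatory chain of type V that sets the diameter of type I fibrils, read 6.84, 7.19 and 6.24 in treated SK-N-AS and 7.41, 6.97 and 6.77 in control SK-N-AS, against 5.43 and 5.08 in treated SK-N-FI and 4.61 and 5.26 in control SK-N-FI. It was above background on 3 of 6 SK-N-AS arrays and on no SK-N-FI array. Its partners COL5A2 and COL5A3 were above background on none.

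The type IV genes lie head to head in 3 pairs, and the members of a pair start 127 bases apart for COL4A1 and COL4A2, 419 for COL4A3 and COL4A4, and 380 for COL4A6 and COL4A5. COL4A2, the alpha 2 chain of the common basement membrane heterotrimer, read 7.02, 7.28 and 7.0 in treated SK-N-AS and 7.12, 6.94 and 7.26 in control SK-N-AS, against 7.29 and 8.01 in treated SK-N-FI and 8.51 and 7.97 in control SK-N-FI. It was above background on 4 of 6 SK-N-AS arrays and 3 of 4 SK-N-FI arrays, and every SK-N-AS value lay within 1 log2 unit of its array's threshold. COL4A1, across the shared promoter region printed above, was above background on no array, with single values between 3.07 and 3.99. COL4A5, a chain of the kidney glomerular membrane, was above background on 1 of 6 SK-N-AS arrays (6.81 on treated array 30) and on no SK-N-FI array, and its neighbour COL4A6 was above background on none. COL4A3 and COL4A4 were likewise above background on none.

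COL23A1, a single-pass transmembrane collagen, was above background on all 10 arrays with replicate SDs between 0.01 and 0.12. It read 8.17, 8.16 and 8.06 in treated SK-N-AS and 8.27, 8.03 and 8.13 in control SK-N-AS, against 10.06 and 10.07 in treated SK-N-FI and 9.75 and 9.76 in control SK-N-FI. The lines do not overlap on this deposited scale, a separation that quantile normalization removed, as given below. COL13A1 and COL25A1, the other transmembrane chains measured, were above background on no array. COL28A1, a chain with von Willebrand factor domains, read 8.07, 7.54 and 7.01 in treated SK-N-AS and 7.43, 6.92 and 7.22 in control SK-N-AS, against 5.39 and 5.41 in treated SK-N-FI and 5.66 and 5.53 in control SK-N-FI. It was above background on 5 of 6 SK-N-AS arrays and on no SK-N-FI array.

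**Figure D2:**
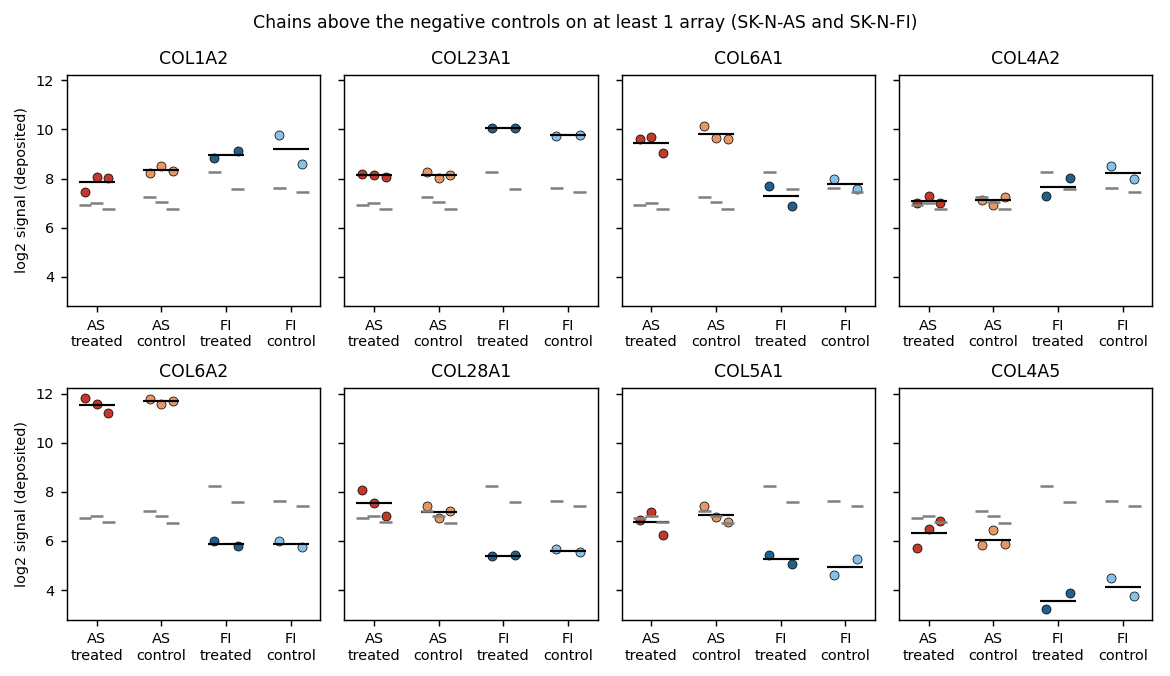
Deposited log2 signal (vertical axis) of the 8 chains above background on at least 1 array, by group, with each array as a point, the group mean as a black line and each array's 95th percentile of negative controls as a grey dash. COL6A2 averaged 11.52 in treated and 11.70 in control SK-N-AS, against 5.89 in treated and 5.88 in control SK-N-FI, and among the controls of SK-N-FI the points of COL1A2 stand at 9.76 and 8.61.

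The first comparison asked whether the compound changed collagen chains in SK-N-AS. No chain changed by the test. Limma called 0 of 41 chains (0% of all 21448 gene probe sets were called), and 0 chains had an unadjusted p under 0.05, against 2.6% of all probe sets. Among the 4 chains above background on every array, the largest log2 difference between treated and control arrays was that of COL1A2 (-0.50, 95% interval -1.03 to 0.03). COL6A1 differed by -0.36 (-0.93 to 0.22), COL6A2 by -0.17 (-0.68 to 0.33) and COL23A1 by -0.02 (-0.45 to 0.41), or by 0.03 without arrays 25 and 28. The adjusted p was 1 for all 4 (limma, n = 3 per group). The intervals of COL6A1, COL6A2 and COL23A1 lay within a 2-fold difference in either direction, and that of COL1A2 did not. COL25A1 (-0.44, -0.91 to 0.03) and COL5A3 (0.42, -0.04 to 0.88) had the next smallest p-values and were above background on no array. The ranges of treated and control arrays stood apart for 7 of 41 chains, against 7.31% of all probe sets, with higher treated values for 3 (3.29% of all) and lower ones for 4 (4.02%). COL1A2 was the only chain above background on every array among these 7. The log2 differences had a median of -0.02 over the 41 chains, with 18 positive (49.2% of all probe sets) and 23 negative, and of -0.0047 over all probe sets. The 95% interval lay within a 2-fold difference for 36 of 41 chains, against 82.1% of all probe sets.

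The same comparison in SK-N-FI had 2 arrays per group and gave no call either. Limma called 0 of 41 chains (0% of all 21448), and the adjusted p was 1 for each. An unadjusted p under 0.05 was found for 4 chains, all with lower treated values, against 2.85% of all probe sets. They were COL11A2 (-0.91, -1.60 to -0.21), COL6A6 (-0.78, -1.40 to -0.16), COL5A2 (-0.61, -1.12 to -0.10) and COL24A1 (-0.61, -1.12 to -0.10), and none of them was above background on any array of either line. Their number was 1 without control array 1 and 9 without control array 2. Of the chains above background on every SK-N-FI array, COL23A1 differed by 0.31 (-0.18 to 0.79) and COL1A2 by -0.22 (-1.09 to 0.65). The sign of COL1A2 rested on control array 1, since without it the log2 difference was 0.36. COL4A2, above background on 3 of 4 arrays, differed by -0.59 (-1.33 to 0.14), and COL6A1 by -0.50 (-1.23 to 0.24). Arrays did not overlap for 14 of 41 chains, 3 higher and 11 lower in treated cells, against 27.8% of all probe sets (13.8% higher and 14% lower). The median log2 difference was -0.12, with 16 positive (49% of all probe sets) and 25 negative, against -0.01 over all probe sets. The background level of SK-N-FI treated array 1 was the highest of the 10 and the percentage of gene probe sets above it, 38.3%, the lowest of the 4 SK-N-FI arrays, and the part of this in the lower values was not tested. The interval lay within a 2-fold difference for 27 of 41 chains, against 84.9% of all probe sets.

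**Figure D3:**
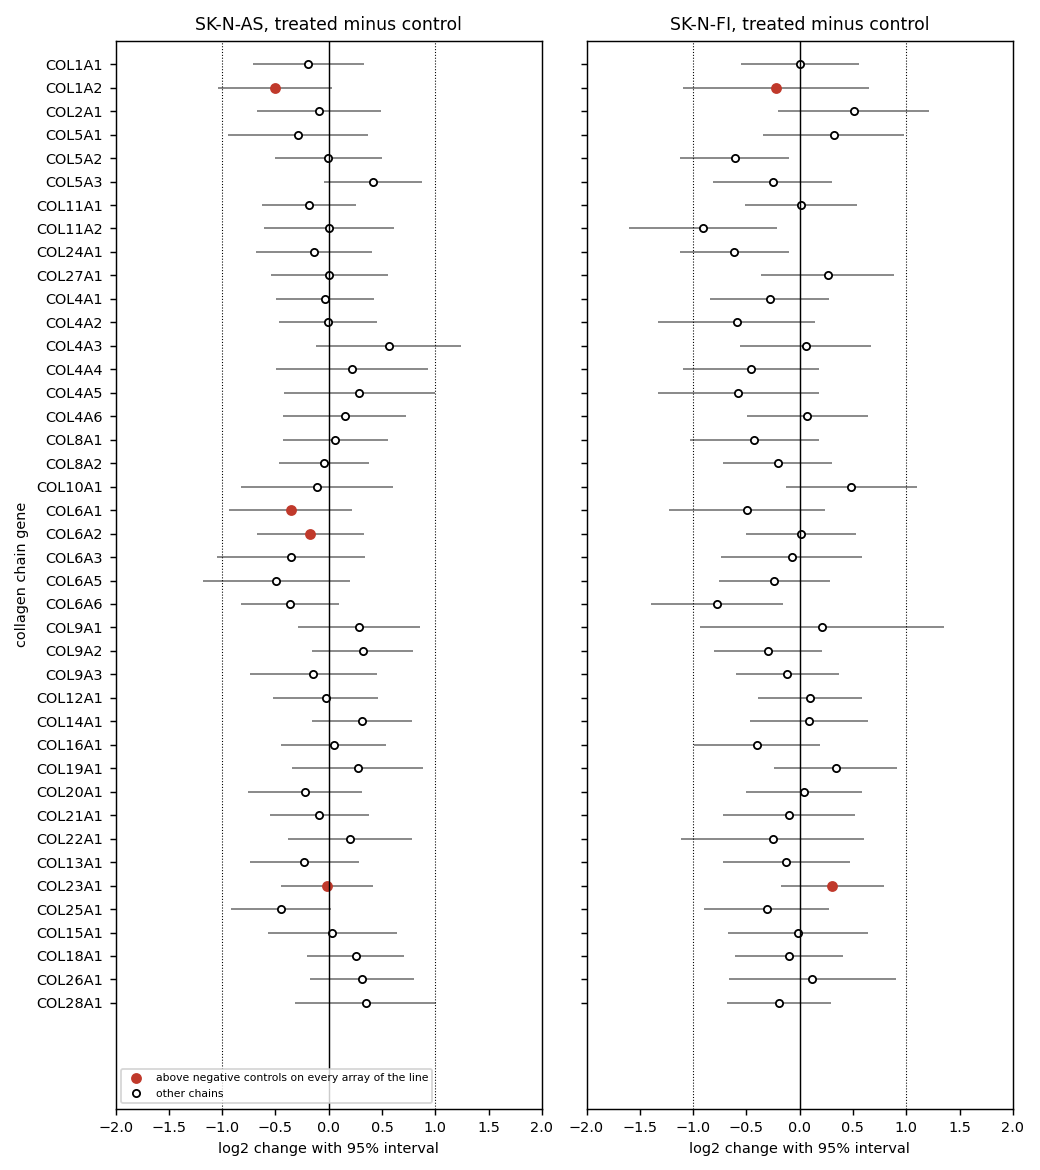
Log2 difference, treated minus control, with its 95% interval (horizontal axis) for each of the 41 chains (vertical axis), SK-N-AS on the left and SK-N-FI on the right, with filled points for chains above background on every array of the line and dotted lines at a 2-fold difference. Every interval in SK-N-AS includes 0, and in SK-N-FI those of COL11A2, COL6A6, COL5A2 and COL24A1 do not, although no chain was called after adjustment.

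The difference of the treatment effects between the lines was then tested. Limma called 0 of 41 chains (0% of all 21448), and 0 chains had an unadjusted p under 0.05, against 2.13% of all probe sets. The log2 difference of effects, SK-N-AS minus SK-N-FI, was 0.14 for COL6A1 (-0.80 to 1.08), -0.19 for COL6A2 (-0.91 to 0.53), -0.28 for COL1A2 (-1.28 to 0.72) and -0.32 for COL23A1 (-0.93 to 0.29). The intervals of COL6A1 and COL1A2 reached past a 2-fold difference, so a like response in both lines was not shown. COL6A6 had lower treated values without overlap in both lines, and COL9A2 had higher treated values without overlap in SK-N-AS and lower ones in SK-N-FI, both from signals below background.

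The lines themselves differed in several chains, and the largest called difference was that of COL6A2. On the quantile scale, limma called 20 of 41 chains between the treated arrays, of which SK-N-AS had the higher level for 16 and SK-N-FI for 4, against 45.5% of all gene probe sets (23.4% and 22.2% by direction). Between the control arrays it called 17 of 41, of which SK-N-AS had the higher level for 13 and SK-N-FI for 4, against 46.7% (23.9% and 22.8%). The share of chains called was thus near that of all probe sets, while more calls lay toward SK-N-AS than toward SK-N-FI on this scale. The treated count rested in part on SK-N-FI treated array 1, without which 12 chains were called, 10 toward SK-N-AS and 2 toward SK-N-FI, and on treated array 2, without which 14 were called, 13 and 1. With 1 treated SK-N-FI array left, calls over all gene probe sets also fell, to 6996 and 7000. On the deposited scale, where the median of all line differences was -0.61 in control and -0.62 in treated arrays against 0.03 and 0.02 after quantile normalization, 27 chains were called in treated arrays (14 toward SK-N-AS, 13 toward SK-N-FI, against 59% of all, 11.2% and 47.8% by direction). In control arrays 26 were called on that scale (10 and 16, against 59.3%, 11.5% and 47.8%). Calls made on both scales numbered 14 toward SK-N-AS (11.1% of all gene probe sets) and 4 toward SK-N-FI (22.1%) in treated arrays, and 10 (11.4%) and 4 (22.8%) in control arrays. The median over the 41 chains was 0.26 in treated and 0.32 in control arrays on the quantile scale, and -0.08 and -0.15 on the deposited scale.

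COL6A2 was higher in SK-N-AS by 6.50 on the quantile log2 scale in treated arrays (95% interval 6.0 to 7.0, limma adjusted p = 1.68e-09) and by 6.63 in control arrays (6.13 to 7.13, adjusted p = 1.43e-09). On the deposited scale the differences were 5.63 and 5.82. COL6A2 was not above background on any SK-N-FI array, so its fold was bounded against the background levels of those arrays. This gave at least 29.9-fold higher in treated and at least 41.7-fold higher in control SK-N-AS on the quantile scale. On the deposited scale the bounds were at least 12.1-fold and at least 18.1-fold. COL6A1 was higher in SK-N-AS by 3.45 in treated arrays (2.80 to 4.11, adjusted p = 2.57e-06) and by 3.42 in control arrays (2.77 to 4.08, adjusted p = 2.68e-06) on the quantile scale, and by 2.15 and 2.02 on the deposited scale. Since both treated SK-N-FI arrays were below background for COL6A1, the treated difference is also given as a bound of at least 7.73-fold on the quantile scale and at least 2.88-fold on the deposited scale. Without arrays 25 and 28 the quantile differences in treated and control arrays were 6.37 and 6.58 for COL6A2, and 3.36 and 3.25 for COL6A1. The third chain, COL6A3, did not pass in either arm on either scale, with quantile differences of -0.33 in treated and -0.04 in control arrays and all signals below background.

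A set of 10 chains was higher in SK-N-AS on both scales and in both arms, against 9.09% of all gene probe sets. Of these, COL6A1, COL6A2, COL5A1, COL28A1 and COL4A5 were above background on at least 1 SK-N-AS array, and COL1A1, COL4A6, COL5A3, COL19A1 and COL27A1 on none. COL28A1 differed by 3.0 in treated and 2.48 in control arrays on the quantile scale and by 2.14 and 1.59 on the deposited scale. With SK-N-FI below background, its bound was at least 2.03-fold in treated arrays, all 3 SK-N-AS arrays being above background, and at least 2.00-fold in control arrays, where 2 of 3 were. COL5A1 differed by 2.28 in treated and 2.89 in control arrays on the quantile scale. In treated arrays 1 of 3 SK-N-AS arrays was above background. Their quantile mean of 7.31 lay among their own background levels of 7.23 to 7.62, so no bound is given. In control arrays 2 of 3 were above background, with a bound of at least 1.80-fold. The SK-N-AS mean there, 7.65, also lay among its own background levels of 7.28 to 7.96. On the deposited scale neither chain had a bound above 1. COL4A5 differed by 3.30 in treated and 2.40 in control arrays on the quantile scale, and COL1A1 by 2.01 and 2.27, with no bound in either case.

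In the other direction, 3 chains were higher in SK-N-FI on both scales and in both arms, against 18.9% of all gene probe sets. They were COL14A1 (-1.52 in treated and -1.79 in control arrays on the quantile scale), which binds fibrils through other matrix proteins, COL24A1 (-0.70 and -1.10), a fibrillar chain, and COL21A1 (-0.66 and -0.66). None was above background on any array of either line, so no fold is given. COL5A2 was higher in SK-N-FI on both scales in control arrays (-1.11 on the quantile scale, limma adjusted p = 0.00263) and did not pass in treated arrays on the quantile scale (-0.62, adjusted p = 0.0541).

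COL23A1 and COL1A2 were above background on all 10 arrays. The sign of the line difference turned between the scales for COL1A2 in both arms and for COL23A1 in control arrays, while COL23A1 in treated arrays kept its sign and passed only on the deposited scale. COL23A1 differed by -0.25 in treated arrays (-0.71 to 0.21) and 0.06 in control arrays (-0.40 to 0.52, or -0.06 without arrays 25 and 28) on the quantile scale and did not pass, whereas on the deposited scale it was called higher in SK-N-FI, by -1.93 and -1.61. COL1A2 differed by 0.46 in treated arrays (-0.24 to 1.16) and 0.81 in control arrays (0.11 to 1.51, limma adjusted p = 0.0568) on the quantile scale, and by -1.12 and -0.84 on the deposited scale, where it was called higher in SK-N-FI. COL4A2 likewise passed in treated arrays on the quantile scale (0.76, adjusted p = 0.0364) and, in control arrays, on the deposited scale in the other direction (-1.13, adjusted p = 0.00288). Between the scales the sign turned for 6 chains in treated arrays and 5 in control arrays. No line direction is therefore given for COL23A1, COL1A2 or COL4A2.

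**Figure D4:**
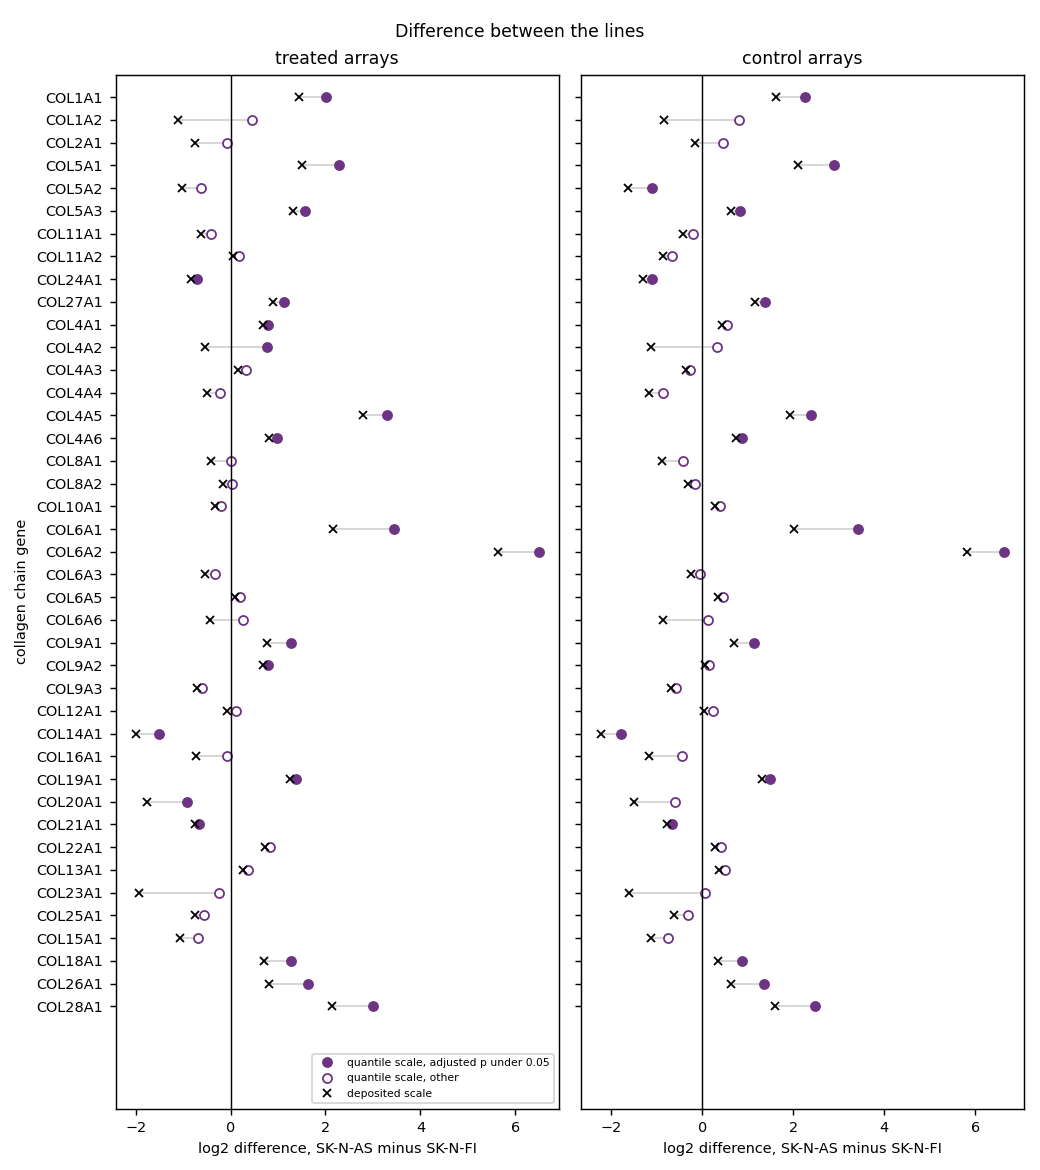
Log2 difference SK-N-AS minus SK-N-FI (horizontal axis) for each of the 41 chains (vertical axis) in treated arrays on the left and control arrays on the right, with circles for the quantile scale (filled where limma's adjusted p was under 0.05) and crosses for the deposited scale. COL6A2 stands at 6.50 in treated and 6.63 in control arrays, and COL23A1 and COL1A2 have their circle and cross far apart.

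Genes that act on collagen chains were described by lists chosen with earlier results of these data known. Unlike the chains, the modification and folding genes were mostly expressed, with 12 of 18 above background on every SK-N-AS array. On every SK-N-FI array 13 of 18 were, against 30.9% and 38.1% of all gene probe sets in the 2 lines. In control arrays 5 of 18 had the higher level in SK-N-AS and 3 of 18 in SK-N-FI on both scales, against 11.4% and 22.8% of all gene probe sets. Of the 18, 4 (P4HA3, PLOD2, P3H2 and CREB3L1) were above background on no array. SERPINH1 (HSP47), the collagen-specific chaperone of the endoplasmic reticulum, averaged 11.52 ± 0.24 in treated and 11.82 ± 0.12 in control SK-N-AS (SD, n = 3 each), against 10.59 ± 0.47 in treated and 10.52 ± 0.50 in control SK-N-FI (SD, n = 2 each). Its line difference in control arrays was 2.82 on the quantile and 1.30 on the deposited scale. FKBP10, a prolyl isomerase of collagen folding, differed by 2.63 and 1.13, and PLOD3, a lysyl hydroxylase, by 2.24 and 0.64. MIA3 (TANGO1), which loads procollagen into transport carriers, was higher in SK-N-FI, with differences of -2.26 and -3.82. The median over the list was 0.74 on the quantile and -0.10 on the deposited scale.

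Of the 13 processing and cross-linking genes measured, 3 (23.1%) were above background on every SK-N-AS array, against 30.9% of all gene probe sets. On every SK-N-FI array 1 (7.69%) was, against 38.1%. On both scales 5 of 13 were higher in SK-N-AS control arrays and 3 of 13 in SK-N-FI control arrays, against 11.4% and 22.8% of all gene probe sets. Only 4 of the 13, TGM2, LOXL1, PCOLCE and ADAMTS3, were above background on any array, and 9 were on none. The calls of genes other than these 4 thus came from signals below background. TGM2, a transglutaminase that cross-links matrix proteins, averaged 11.53 ± 0.63 in control SK-N-AS (SD, n = 3) and 4.56 ± 0.28 in control SK-N-FI (SD, n = 2), below background on every SK-N-FI array, so that it was at least 37.5-fold higher on the quantile and at least 16.1-fold higher on the deposited scale. LOXL1, a lysyl oxidase, was at least 5.53-fold and at least 2.09-fold higher in control SK-N-AS by the same bounds. PCOLCE, which enhances removal of the procollagen C-propeptide, was above background on all arrays and differed by 3.41 on the quantile and 2.07 on the deposited scale. ADAMTS3, a procollagen N-proteinase, was below background on every SK-N-AS array and at least 2.07-fold higher in control SK-N-FI on the deposited scale, with no bound on the quantile scale.

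Among 10 collagen receptors, 6 were above background on every SK-N-AS array, against 30.9% of all gene probe sets. On every SK-N-FI array 2 were, against 38.1%. In control arrays 5 of 10 receptors were higher in SK-N-AS on both scales and 0 of 10 in SK-N-FI by limma (11.4% and 22.8% of all gene probe sets). The control differences were positive for 9 of 10 receptors on each scale. Of all 21448 gene probe sets, 11013 were positive on the quantile and 6282 on the deposited scale. GP6, LAIR1 and ADGRG1, among the receptors with a positive difference, were above background on no array. ITGA10, the receptor with a negative one, was above background on none either. MRC2 (Endo180), the receptor that takes up collagen fragments, was at least 9.85-fold higher in control SK-N-AS on the quantile and at least 3.79-fold on the deposited scale. ITGA2, the alpha 2 subunit of a collagen-binding integrin, was at least 10.2-fold and at least 3.95-fold higher by the same bounds. DDR1, a receptor tyrosine kinase for collagen, differed by 2.45 and 0.91, and GP6, the platelet collagen receptor, by 1.72 and 1.06 from signals below background. No gene of the 3 lists passed in either treatment comparison by limma, and 0 had an unadjusted p under 0.05 in either. The smallest p-values in SK-N-AS belonged to PLOD1 (-0.43), MRC2 (-0.35), LOX (-0.30), SERPINH1 (-0.29), DDR1 (-0.27) and PCOLCE2 (0.23) within their lists, and in SK-N-FI to TLL1 (-0.63), DDR1 (-0.42), PLOD2 (-0.40), P3H2 (-0.37), TGM2 (0.35) and ITGA2 (-0.26).

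**Figure D5:**
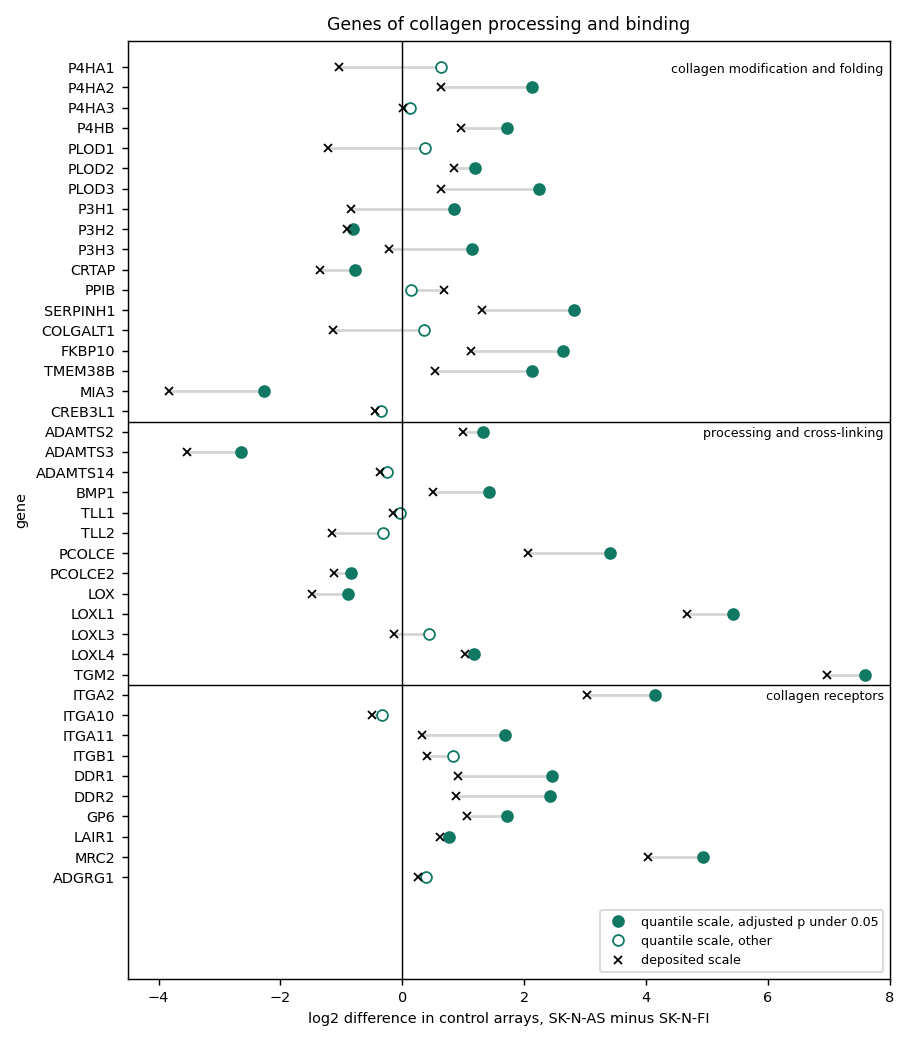
Line difference in control arrays on a log2 scale, SK-N-AS minus SK-N-FI (horizontal axis), for the 41 measured genes of collagen modification, processing and binding (vertical axis), with circles for the quantile scale (filled where limma's adjusted p was under 0.05) and crosses for the deposited scale. TGM2 stands farthest to the right at 7.59 on the quantile and 6.97 on the deposited scale, and MIA3 and ADAMTS3 farthest to the left on both.

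Marker genes of other cell types also differed between the lines. Fibroblast markers were above background on every SK-N-AS array for 5 of 7 genes (DCN, LUM, PDGFRA, PDGFRB and THY1), against 30.9% of all gene probe sets. FAP was above background on 5 of 6 SK-N-AS arrays and POSTN on none. In SK-N-FI only THY1 of the 7 was above background on every array, against 38.1% of all gene probe sets. The fibroblast signal, summed before taking log2, ranged from 14.4 to 16.0 in treated and from 13.8 to 15.3 in control SK-N-AS. In SK-N-FI it was 12.8 to 13.2 in treated and 12.7 to 12.9 in control arrays. Such a sum mostly follows the brightest genes, which differed between the lines. By mean the brightest was LUM in treated (14.60) and control SK-N-AS (13.82), and THY1 in treated (12.87) and control SK-N-FI (12.61). On both scales and in both arms SK-N-AS had the higher level for 4 of 7 (DCN, LUM, PDGFRA and FAP), against 9.09% of all gene probe sets. SK-N-FI had it for 2 of 7 (THY1 and POSTN), against 18.9%. POSTN was above background on no array of either line, with means of 4.92 in treated and 4.80 in control SK-N-FI. THY1 averaged 9.41 in control SK-N-AS and 12.61 in control SK-N-FI. PDGFRB averaged 7.53 and 8.17 in these groups on the deposited scale, and 8.17 and 7.32 on the quantile scale. COL1A1, the main fibrillar chain of fibroblasts, was below background on all 6 SK-N-AS arrays, a signal that says little about its transcript. COL1A1 was also called higher in SK-N-AS on both scales and in both arms. Its partner COL1A2 was above background on every array of both lines, and COL3A1 was not analysed here. Mesenchymal state markers were above background on every SK-N-AS array for 5 of 7 genes and on every SK-N-FI array for 3 of 7. The shares of all gene probe sets were 30.9% and 38.1%. Their summed signals were 14.6 to 14.7 in treated and 14.5 to 14.7 in control SK-N-AS, against 14.5 in both treated and 14.6 in both control SK-N-FI arrays. VIM, the brightest marker in each group, averaged 14.57 in treated and 14.45 in control SK-N-AS, and 14.19 and 14.26 in SK-N-FI. It makes up most of these sums. Members of the list went both ways. The control difference was positive for 5 of 7 and negative for 2, CD44 and TEAD1, on each scale. Over all 21448 gene probe sets the positive counts were 11013 (quantile) and 6282 (deposited). In control arrays CD44 averaged 8.58 in SK-N-AS and 11.28 in SK-N-FI, and TEAD1 8.83 and 11.13. FOSL1 averaged 8.14 and 5.98, and FOSL2 9.24 and 7.43, with SK-N-FI below background for both. Endothelial markers (5 genes) were above background on no array. The part of these genes in the line differences of the collagen chains was not tested.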

How the data were processed

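Total RNA was extracted with Trizol, labelled with biotin and hybridised to whole-transcript arrays, per the labels' protocols. The authors' deposited table holds log2 signals for 10 arrays and 24351 probe sets, 2903 of them controls. Transcriptome Analysis Console 4.0.1.36 and RMA are named in the submitters' processing notes, and which step each did is not given in the sources used here. RMA background correction and quantile scaling remove shifts shared by most genes of an array. The platform annotation named 17709 probe sets with 1 symbol each, and 3739 gene probe sets were unnamed here. For SK-N-FI, 2 arrays per condition were analysed here, fewer than the replicates the series design mentions. No arrays held identical values.

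Each treatment effect was fitted within its line on the deposited values with lmFit and eBayes of limma 3.58.1 (R 4.3.3), and the interaction and the line differences came from 1 fit of the 4 groups. Benjamini-Hochberg adjustment ran over all 21448 gene probe sets at a threshold of 0.05, and the fits were tested on simulated data. A line difference of a gene below background on every array of one arm is given as a lower bound, where there was one. It sets the mean of the brighter line against the dimmer line. Each array of the dimmer line counts with its background level or the gene's own signal, whichever is higher. No bound is given where the mean of the brighter line lay among its own background levels and most of its arrays were below them. Arrays have no read depth, and their number limits the precision. Members, collagen classes, the 7 gene lists (66 of 70 genes measured) and the tests were chosen with earlier results of these data known. Values on every array are given for chains above background on every array of a line, and additionally for COL5A1, COL4A2 and COL28A1, which were picked after their values were seen. In each treatment comparison the 5 largest differences among chains above background on every array of the line and the 3 smallest p-values were named, and chains that form 1 trimer or share a promoter always were. Partner genes were named for the 4 largest line differences called on both scales and the 2 smallest p-values per treatment comparison. Samples with the same SK-N-FI number did not deviate together (correlation -0.17), so no pairing was used. The first component of the SK-N-FI arrays, with 42.9% of their variance, crossed the treatment groups. Control 1 (-20.9) lay near treated 2 (-25.6), and control 2 (19.0) near treated 1 (27.5). The source of this was not tested. Alternatives covered eBayes settings, scaling, a filter on dim probe sets, array weights, other background percentiles, a 2-fold minimum, a replicate block and leaving out each array. A crossed block, and leaving out arrays 25 and 28 in the line comparisons, were added after seeing the data.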

Additional observations from a re-analysis of the deposited data

How the results depend on the processing

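The treatment counts and the interaction count stayed at 0 called chains under every alternative run, including each left-out array. All 41 chains were tested except under the filter on dim probe sets, which left 6 in SK-N-AS, 4 in SK-N-FI and 6 for the interaction. In SK-N-FI the replicate block gave 0 called chains, as did no block, and the crossed replicate block also gave 0, with 4 and 6 chains at an unadjusted p under 0.05. The log2 difference of COL1A2 in SK-N-FI turned to 0.36 without control array 1 (range -0.80 to 0.36 over left-out arrays). That of COL23A1 in SK-N-AS, close to 0, turned to 0.016 with array weights, 0.047 without control array 25, 0.018 without treated array 30 (range -0.072 to 0.047 over left-out arrays) and 0.028 without both arrays 25 and 28. For the line counts, a filter on dim probe sets, which left 6 chains to test, gave 4 in treated and 4 in control arrays, 4 toward SK-N-AS and 0 toward SK-N-FI in each. A 2-fold minimum gave 6 in treated arrays (6 and 0) and 7 in control arrays (6 and 1). The deposited scale gave 13 chains higher in SK-N-FI in treated arrays, and in control arrays 26 chains of which 16 were higher in SK-N-FI. Centring on the median of the negative controls gave 10 higher in SK-N-FI in treated and 12 in control arrays, centring on the median of gene probe sets gave 21 higher in SK-N-AS in control arrays, and array weights gave 7 higher in SK-N-FI in each arm. Leaving out single arrays gave 12 to 21 chains in treated arrays (10 to 17 higher in SK-N-AS, 1 to 5 higher in SK-N-FI) and 13 to 19 in control arrays (10 to 14 and 3 to 6). COL1A2 turned to -1.12, -0.28 and -1.03 in treated arrays on the deposited scale and with gene median and negative control centring, and to -0.84 and -0.69 in control arrays on the deposited scale and with negative control centring. COL23A1 in control arrays turned to -1.61, -0.77 and -1.47 under the same 3 scalings, and to -0.058 without control array 25, alone or with array 28 (range -0.058 to 0.14 over left-out arrays). COL6A1 and COL6A2 kept their direction and call under every alternative run. Where the scaling was not the choice changed, the cause was not tested. With the 99th percentile of the negative controls, 1 chain was above background on every SK-N-AS array and 0 on every SK-N-FI array, against 25 and 26 with their median. Of the other results, 123 that answer a comparison and 244 of named chains kept their direction and side of the threshold. Dim signal limits most chains: 33 of 41 were never above background, and 2 or 3 arrays per group leave intervals near 2-fold.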
